A study of Rattus norvegicus with 16 samples.

Results

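Livers of all 8 rats fed soy protein isolate (SPI) were set against the livers of 3 of the 8 rats fed casein (CAS), those whose level of Lbp, an acute phase transcript, was under 4000 normalised reads. The CAS livers were therefore selected on a measured value, and the 11 livers were 11 of the 16 sequenced. The 3 CAS livers kept were CAS 4, CAS 6 and CAS 7, and the 5 left out were CAS 1, CAS 2, CAS 3, CAS 5 and CAS 8. The comparison asked which differences between the diets were still seen when the hepatic acute phase level of the CAS livers was near that of the SPI livers.

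All rats were male obese Zucker rats, young when feeding began, a strain in which obesity and fatty liver follow from an inherited defect of the leptin receptor. The SPI group ate a diet with soy protein rich in isoflavones and the CAS group a diet with casein, both freely and for 16 weeks, with 1 rat to a cage. No lean rats and no rats of the other sex were among the groups, and every value below is a level in obese livers. RNA of whole liver was sequenced with 1 library per rat, so a lower level of a transcript from fewer cells of a type and one from less RNA per cell cannot be told apart.

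The values are normalised read counts, which are reads per gene divided by a size factor for each library. Depth was 14901365 to 21517766 reads in the 8 SPI libraries and 17602306 to 19125056 reads in the 3 CAS libraries. Genes that reached a value of 10 in 5 or more of the 11 libraries were tested, which kept 8067 of 9645. A gene expressed only in the 3 CAS livers cannot pass that filter, and 6 genes at 10 or more in all 3 of them were lost to it. Of 10 hepatocyte markers listed, 5 were in the table and all 5 passed that filter, and albumin alone took 18.1% to 25.7% of the reads of the 11 libraries. On the first 2 principal components, which held 14.6% and 12.6% of the variance of the 11 libraries, the CAS livers lay within the range of the SPI livers on the first (SPI -42.7 to 33.0, CAS -9.74 to 13.5). On the second the SPI livers spanned -38.2 to 24.0 and CAS 4, CAS 6 and CAS 7 were at 8.43, 11.3 and 25.0, so CAS 7 lay above every SPI liver.

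The acute phase response is the change in protein synthesis by which hepatocytes answer inflammatory cytokines such as interleukin 6 and interleukin 1. Lbp encodes the lipopolysaccharide-binding protein, which passes bacterial lipopolysaccharide to CD14 and so to its receptor on macrophages. Lcn2 encodes lipocalin 2, which binds bacterial iron carriers, and both rise in liver during inflammation and in fatty liver disease.

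Lbp, the transcript that chose the CAS livers, was at 2055, 2241, 3387, 2387, 2334, 1942, 2195 and 2103 normalised reads in SPI 1 to SPI 8, against 2494, 2572 and 2476 in CAS 4, CAS 6 and CAS 7. SPI 3 was the only SPI liver above the 3 CAS livers, and the other 7 lay below all 3 of them. Around the limit of 4000 the nearest CAS values were 2572 inside and 5346 outside, and the 5 livers left out reached 9302.

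Lcn2 was at 150, 54.4, 369.6, 81.6, 80.1, 113, 50.0 and 64.6 normalised reads in SPI 1 to SPI 8, against 137, 132 and 109.8 in the 3 CAS livers. SPI 3 was again the highest, and the SPI livers lay on both sides of the CAS livers. The 5 CAS livers left out held 537 to 2147. Since the CAS livers were chosen on an acute phase transcript, Lbp, Lcn2 and the other genes of this response are given as levels, without a test between the diets.

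Other acute phase transcripts were described in the same way, as levels. Among 29 listed transcripts known to rise in inflammation, Lbp and Lcn2 left aside, the range of the SPI livers overlapped that of the 3 CAS livers for 28, and 22 differed by less than 1.3-fold on the scale used for tests, log2 of the value plus 1 after quantile normalisation. Their median log2 fold change of SPI over CAS was 0.08. With Lbp and Lcn2 the list of 31 had a median of 0.04, and of -0.007 over all 8 CAS livers. Its median was thus small with or without the choice on Lbp. It cannot show that the acute phase level was matched. Across all genes tested the ranges were apart for only 0.917% with SPI above and 1.08% with SPI below. An overlap of ranges is thus common to nearly all genes, and the share of all genes within 1.3-fold was not counted. All 8 listed transcripts of plasma proteins known to fall were within 1.3-fold on that scale, with overlapping ranges for 7 and a median of 0.02. Quantile normalisation sets genes of the same rank to the same value. Albumin (Alb) and transferrin (Tf), of the same high rank in every library, therefore could not differ there. As deposited, 7 of 8 SPI livers lay above the 3 CAS livers for Alb, and for Tf 3 lay above and 3 below. On the values as deposited, without quantile normalisation, the medians of the 29 and of the 8 transcripts were 0.14 and 0.23.

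Orm1, alpha-1-acid glycoprotein, held 17436, 25061 and 38822 normalised reads (lowest, median and highest) in the SPI livers, against 18939, 20089 and 21936 in CAS 4, CAS 6 and CAS 7. Haptoglobin (Hp) held 308855, 360521 and 531046 in the SPI livers, against 337112, 323440.0 and 343873 in the CAS livers. For both transcripts the SPI livers lay below, among and above the CAS livers, and the highest of them was SPI 3. Hepcidin (Hamp), the hormone that limits iron export from cells, held 2581, 3943 and 6828 in the SPI livers, against 4872, 5884 and 4613, with 7 of 8 SPI livers below all 3 CAS livers. Crp, C-reactive protein, held 97352, 111455 and 127495 in the SPI livers, against 80687, 92540.1 and 111584. Igfals, which carries insulin-like growth factors in blood and falls in inflammation, held 5876, 6519.8 and 9285 in the SPI livers, against 5888, 5912 and 5719, and 3322 to 5813 in the CAS livers left out. For Crp 4 of 8 and for Igfals 7 of 8 SPI livers lay above the 3 CAS livers, and the ranges overlapped. Other listed transcripts were shifted in either direction. Fgl1 had a log2 fold change of 0.53 with 7 of 8 SPI livers above, and Pigr one of -0.63 with 3 of 8 below. For Gc, on the list of those that fall, all 8 SPI livers lay above.

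The metallothionein transcript Mt2A, which encodes a metal-binding protein and belongs to the same list, had ranges that were apart. It reached the filter only through SPI livers, so the separation follows in part from the filter. Its values were 4.08, 30.4 and 81.1 normalised reads in the SPI livers and 0, 2.73 and 2.03 in the 3 CAS livers, while the 5 CAS livers left out held 0 to 23.4. All 8 SPI livers were above the 3 CAS livers, and the CAS livers with high Lbp overlapped both. Mt1 held 32.7, 105 and 411 in the SPI livers, against 52.6, 38.2 and 77.3, with 7 of 8 SPI livers above.

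**Figure D1:**
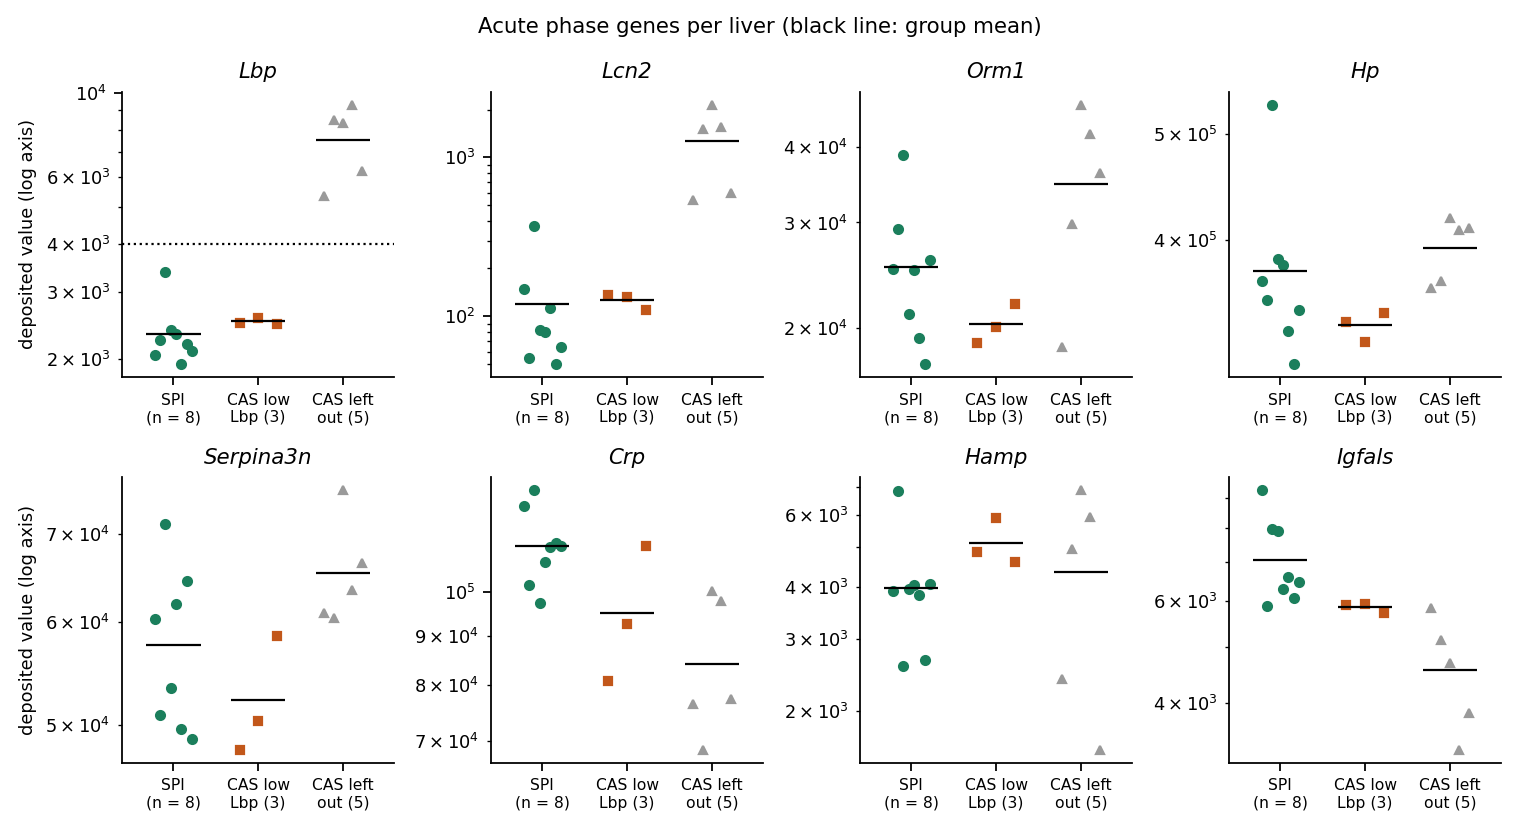
Normalised read counts of 8 acute phase transcripts on log axes, with 1 point per liver for the 8 SPI livers, the 3 CAS livers kept and the 5 CAS livers left out, and black lines at the group means. The dotted line in the Lbp panel is the limit of 4000, under which all 8 SPI livers and the 3 CAS livers kept lay, with the left-out livers at 5346 to 9302.

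Across all genes, few differences between SPI and low-Lbp CAS livers passed a correction for the number of genes. At an adjusted p under 0.05 from limma, 1 of 8067 genes was higher in SPI livers (0.0124%) and 0 were lower (0%). At an unadjusted p under 0.05, 264 genes were higher and 229 lower, 6.11% of genes together. At the looser thresholds used from here on, an unadjusted p under 0.05 together with more than a 1.3-fold difference, 202 genes were higher (2.5%) and 159 lower (1.97%). Every SPI liver lay above every low-Lbp CAS liver for 74 genes (0.917%) and below for 87 (1.08%).

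In most other fits the adjusted counts were also small. edgeR's quasi-likelihood test called 2 genes higher (Cyp1a2 and Rgn) and 1 lower (LOC100361492), and the values as deposited and upper-quartile scaling also gave 2 higher and 1 lower, while DESeq2 called 23 higher and 14 lower. With 1 library left out at a time, the counts ran from 0 (without CAS 4, SPI 5, SPI 6 or SPI 8) to 7 (without SPI 7) higher and from 0 to 3 (without SPI 7) lower. Without SPI 1 or SPI 2 they were 4 and 1, without SPI 4 they were 3 and 1, and without SPI 3, the SPI liver with the most Lbp, they were 1 and 0. The acute phase transcript Mt2A was among the genes called by DESeq2 and without SPI 1 or SPI 7. Without CAS 6 or CAS 7 the 1 gene called was not Cyp1a2 but LOC108353214 and LOC102547735 in turn. With all 8 CAS livers in the same fit, 155 genes were higher (1.92%) and 228 lower (2.83%) at an adjusted p under 0.05. That fit has more livers and holds the acute phase difference between them, and the fits share the SPI livers and 3 CAS livers, so their values are only set side by side below.

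**Figure D2:**
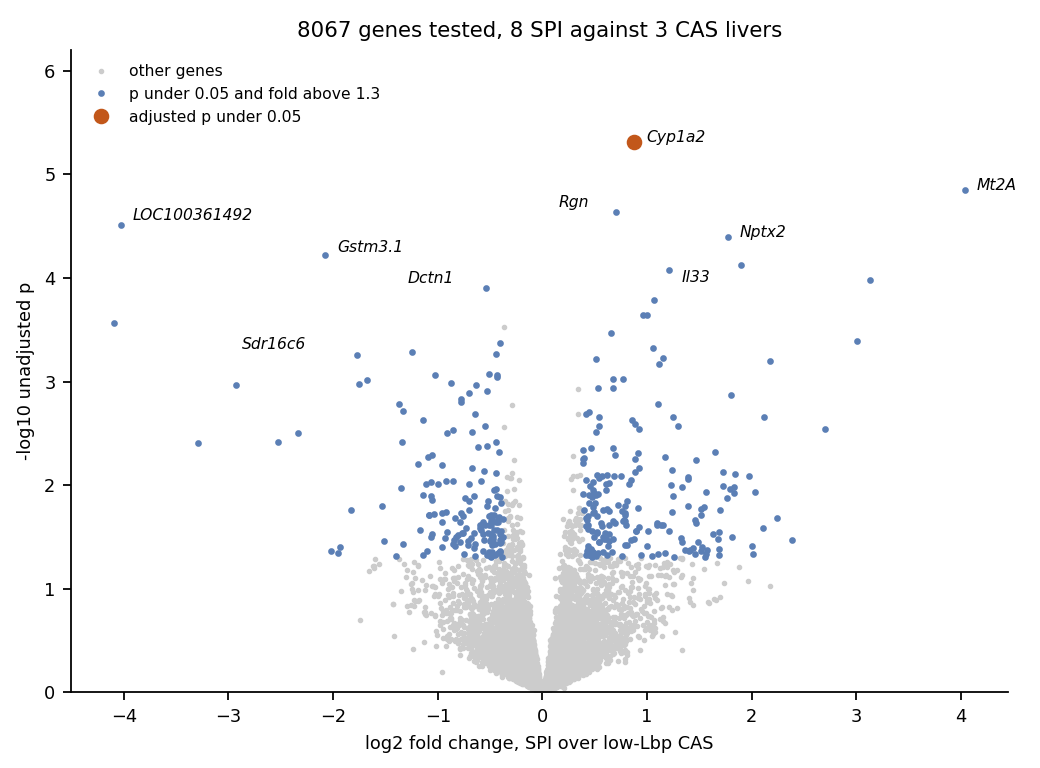
Log2 fold change of SPI over low-Lbp CAS livers against -log10 of the unadjusted p for 8067 genes. Blue points are the 202 higher and 159 lower genes at the looser thresholds (Cyp1a2 included), and the orange point, Cyp1a2, is the only gene at an adjusted p under 0.05.

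Cyp1a2, the hepatic cytochrome P450 that oxidises caffeine and aromatic amines and whose gene is a target of the aryl hydrocarbon receptor, was the only gene to pass. Its values in SPI 1 to SPI 8 were 3327, 3894, 6788, 5181, 4480.2, 4596, 4248 and 5164 normalised reads, against 2561, 2392 and 2229 in CAS 4, CAS 6 and CAS 7. All 8 SPI livers were above all 3 CAS livers. The means were 4710 ± 1042 in SPI livers (SD, n = 8) and 2394 ± 166 in low-Lbp CAS livers (SD, n = 3), and the 5 CAS livers left out held 1169 to 2684. Cyp1a2 rose by 0.88 on the log2 scale (SE 0.14, adjusted p = 0.0394 from limma).

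The size of the Cyp1a2 difference was 0.81 to 1.15 over the alternatives, but the call depended on single livers. Its adjusted p was 0.104 without CAS 4, 0.0942 without CAS 6, 0.127 without CAS 7, 0.101 without SPI 5, 0.118 without SPI 6 and 0.106 without SPI 8, and 0.00429 without SPI 1. With all 8 CAS livers the log2 fold change was 1.15.

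Promoter sequences of the gene that passed and of Nptx2, the only leading gene with higher values that held 2 matches to the aryl hydrocarbon receptor core, are printed to show what lies before the start of each. They are the 250 bases before the annotated start, from RefSeq on build GRCr8, a later build than that of the files, at chr8:66978150-66978399 on the minus strand for Cyp1a2 and chr12:15162046-15162295 on the minus strand for Nptx2. Capitals mark TATAAA, which 12.9% of 33469 promoters of this length hold on either strand, and the receptor core GCGTG, which 25.9% hold on either strand (CACGC where it lies on the other).
Cyp1a2: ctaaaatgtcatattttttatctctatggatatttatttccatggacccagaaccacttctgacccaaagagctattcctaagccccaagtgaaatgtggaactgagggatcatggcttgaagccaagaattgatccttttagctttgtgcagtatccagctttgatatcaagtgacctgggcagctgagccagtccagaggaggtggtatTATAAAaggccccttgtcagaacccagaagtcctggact
Nptx2: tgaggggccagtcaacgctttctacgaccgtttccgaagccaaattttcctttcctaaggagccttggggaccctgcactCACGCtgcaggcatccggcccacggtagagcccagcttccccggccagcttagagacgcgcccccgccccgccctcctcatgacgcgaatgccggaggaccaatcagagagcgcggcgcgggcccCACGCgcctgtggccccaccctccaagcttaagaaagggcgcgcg
Of the 24 leading genes, 9 of 12 with higher values and 7 of 12 with lower values had a promoter in the table. GCGTG was found in 2 of the 9 (Nptx2 and Prss32) and in 4 of the 7 (Dctn1, Trip6, F11r and Cenpb), and the Cyp1a2 window held none. The HNF4A motif CAAAGTCCA, in 0.338% of promoters, and the palindromic HNF1 motif, in 1 promoter of all (both motifs searched on both strands), were in none of the 16. TATAAA was in 2 of the 9 and 1 of the 7. A match describes letters and not binding, and no match says only that the letters are not in this window.

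Leading genes were the 12 in each direction with the smallest unadjusted p among those with a mean of at least 50 normalised reads over the 11 livers, a fold above 1.3 and no place in an acute phase list. Only Cyp1a2 among them passed the adjustment. Rgn, which encodes regucalcin, a calcium-binding lactonase of the vitamin C pathway of rodents, held 9591, 12707 and 14821 normalised reads in the SPI livers (lowest, median and highest), against 6419.7, 6749 and 7997 in CAS 4, CAS 6 and CAS 7. All 8 SPI livers lay above the CAS livers, and the left-out CAS livers were lower still at 2519.9 to 5248. The log2 fold change was 0.71 (SE 0.13), and the adjusted p was 0.0618 from limma and 0.0413 from edgeR.

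Nptx2, neuronal pentraxin 2, a secreted protein best known from synapses, held 129, 213 and 359 normalised reads in the SPI livers, against 80.5, 53.6 and 52.9 in the 3 CAS livers and 15.5 to 25.6 in the CAS livers left out. The SPI livers, the low-Lbp CAS livers and the other CAS livers thus held 3 ranges that did not overlap. Its log2 fold change was 1.77 (SE 0.32, adjusted p = 0.0648 from limma).

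Il33, a cytokine of the interleukin 1 family released by damaged barrier cells, held 86.8, 135 and 165.3 in the SPI livers, against 44.7, 52.7 and 74.2 in the CAS livers, with a log2 fold change of 1.21 (SE 0.24, adjusted p = 0.0836 from limma). The 5 left-out CAS livers spanned 21.7 to 78.3, so the CAS livers with high Lbp overlapped those with low Lbp.

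The other leading genes with higher values in SPI livers differed by log2 fold changes of 0.51 to 1.89, with adjusted p of 0.0836 to 0.203 from limma, so none passed. Resp18, a protein of endocrine secretory cells, held 105, 139.8 and 162 in the SPI livers, against 62.6, 56.4 and 85.4. Enpep, the aminopeptidase that trims angiotensin II, held 1309.8, 1966 and 2445 in the SPI livers, against 982, 1404 and 1320.0, with 7 of 8 SPI livers above. Cyp7b1, Cyp3a9, Hal and Prss32 are described with their groups below, and LOC108351944 and LOC108350508 carry no name in the files, with log2 fold changes of 1.89 and 1.05.

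Among the genes with lower values in SPI livers, Gstm3.1, a glutathione S-transferase of the mu class, held 13.8, 28.7 and 95.9 normalised reads in the SPI livers, against 156, 140.0 and 121 in CAS 4, CAS 6 and CAS 7. The groups did not overlap, and the 5 CAS livers left out held 412 to 1887. Its log2 fold change was -2.07 (SE 0.40, adjusted p = 0.0810 from limma), and it belongs to a family of similar genes among which reads may be split.

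Sdr16c6, a short-chain dehydrogenase/reductase, held 389, 828 and 1274 in the SPI livers, against 2383, 2286 and 3481 in the low-Lbp CAS livers, with no overlap. The left-out CAS livers spanned 1041 to 4723, and the log2 fold change, -1.78 (SE 0.36, adjusted p = 0.202 from limma), was close to the -1.86 over all 8 CAS livers.

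Dctn1, the large subunit of dynactin, held 1059.8, 1168 and 1343 in the SPI livers, against 1873, 1466 and 1719.7 (log2 fold change -0.54, SE 0.11). Trip6, a LIM protein of focal adhesions, held 55.0, 122 and 173, against 252, 196 and 316 (-1.24, SE 0.30). F11r, a tight junction adhesion molecule, held 2649, 3114 and 3647, against 4109, 3747 and 4529 (-0.44, SE 0.11).

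None of these passed, with adjusted p of 0.100 (Dctn1), 0.202 (Trip6) and 0.234 (F11r) from limma, and all 8 SPI livers were below the 3 CAS livers in each. Krt8, a keratin of hepatocytes, had a log2 fold change of -0.45 (SE 0.11, adjusted p = 0.202), with 7 of 8 SPI livers below. Ihh, the hedgehog ligand Indian hedgehog, held 70.4, 87.1 and 130.4 in the SPI livers, against 166, 167 and 159, a log2 fold change of -0.87 (SE 0.22, adjusted p = 0.234). The remaining leading genes with lower values were Cenpb, a centromere protein, at -0.43, LOC102552121 at -1.03 and LOC102549932 at -1.67, together with Plin3 and Arg1, which are given with their groups.

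Below the mean of 50 that the choice of leading genes required, LOC100361492 and Parm1, a membrane mucin, had the most negative log2 fold changes of the fit and were picked out after their values were seen. LOC100361492 held 0.916, 6.90 and 29.6 in the SPI livers, against 112, 101 and 207 (log2 fold change -4.03, SE 0.73, adjusted p = 0.0621 from limma and 0.0179 from edgeR). Parm1 held 0, 4.67 and 35.7, against 127, 84.5 and 63.1 (-4.10, SE 0.91, adjusted p = 0.155). At such low values a log2 fold change depends on the pseudocount, and with a pseudocount of 8 these were -3.06 and -2.74 (adjusted p = 0.00204 and 0.0178 from limma).

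**Figure D3:**
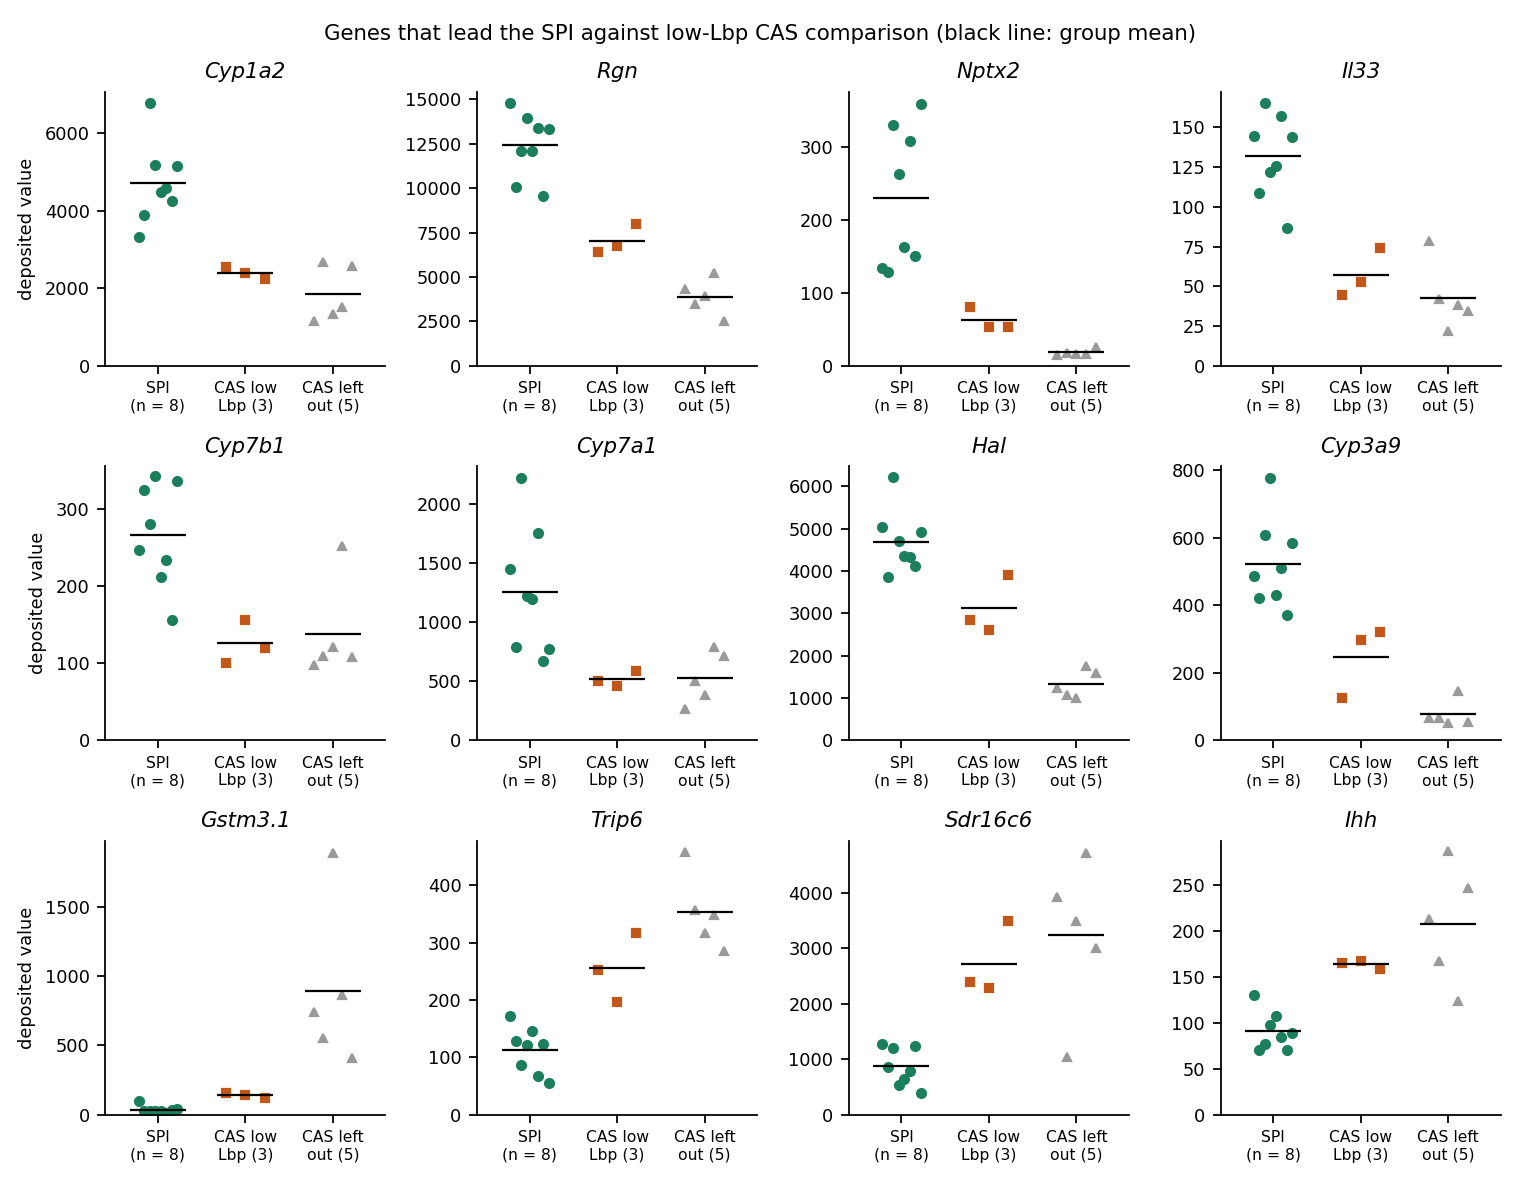
Normalised read counts of 12 transcripts in the 8 SPI livers, the 3 low-Lbp CAS livers and the 5 CAS livers left out, with 1 point per liver, black lines at the group means and axes from 0. For 10 of the 12 the SPI and low-Lbp CAS points do not overlap, the exceptions being Cyp7b1 and Hal, for which 7 of 8 SPI livers lay above the 3 CAS livers. All but Cyp7a1 are leading genes, chosen by their p in these same livers, so the separation follows in part from that choice. Over all genes SPI livers lay wholly above for 0.917% and wholly below for 1.08%.

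The 12 transcripts that the study had taken to RT-qPCR were chosen by it for their difference in these same libraries, so their direction is not independent evidence. At those looser thresholds 6 were higher and 6 lower in SPI than in low-Lbp CAS livers, beside 2.5% and 1.97% of all genes, and 0 passed the adjustment. Without CAS 6 the lower ones were 3. Rgn, Nptx2, Resp18 and Sdr16c6 are given above.

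Sult2a1, a sulfotransferase of bile acids and steroids, held 49.4, 119.7 and 206 normalised reads in the SPI livers, against 15.9, 34.5 and 55.9 in CAS 4, CAS 6 and CAS 7, and 0 to 13.8 in the left-out CAS livers. The log2 fold change was 1.81 (SE 0.46) against the 3 CAS livers and 3.46 against all 8. Prss32, a serine protease, held 396, 505 and 869.6 in the SPI livers, against 355, 216 and 233 (0.96, SE 0.21, and 1.64 against all 8 CAS livers). Amdhd1, an enzyme of histidine breakdown, held 248, 336 and 763, against 294, 196 and 185, with 5 of 8 SPI livers above the CAS livers (0.87, SE 0.36).

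Prss8 encodes prostasin, a membrane-bound serine protease of epithelia. It held 0, 12.9 and 29.7 normalised reads in the SPI livers, against 66.6, 68.2 and 139 in the 3 CAS livers, and 383 to 719 in the CAS livers left out. The log2 fold change was -2.93 (SE 0.74, adjusted p = 0.234 from limma) against the 3 CAS livers and -4.61 against all 8. Its levels again formed 3 ranges without overlap.

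Gnai1, an inhibitory G protein subunit, held 5.01, 19.8 and 33.0 in the SPI livers, against 65.6, 52.7 and 70.2 (log2 fold change -1.75, SE 0.45). Cidea, which joins lipid droplets into larger ones, held 27.5, 53.4 and 68.2, against 78.5, 87.3 and 86.4 (-0.83, SE 0.33), and the left-out CAS livers held 152 to 320.2. For both genes all 8 SPI livers lay below the CAS livers. Magee1 and the zinc finger factor Hivep2 had log2 fold changes of -0.91 (SE 0.38) and -1.08 (SE 0.42), with 8 and 6 of 8 SPI livers below. Against all 8 CAS livers the log2 fold changes of these 4 genes were -2.20 for Gnai1, -1.73 for Cidea, -1.72 for Magee1 and -1.75 for Hivep2, and the difference between the comparisons was not tested.

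**Figure D4:**
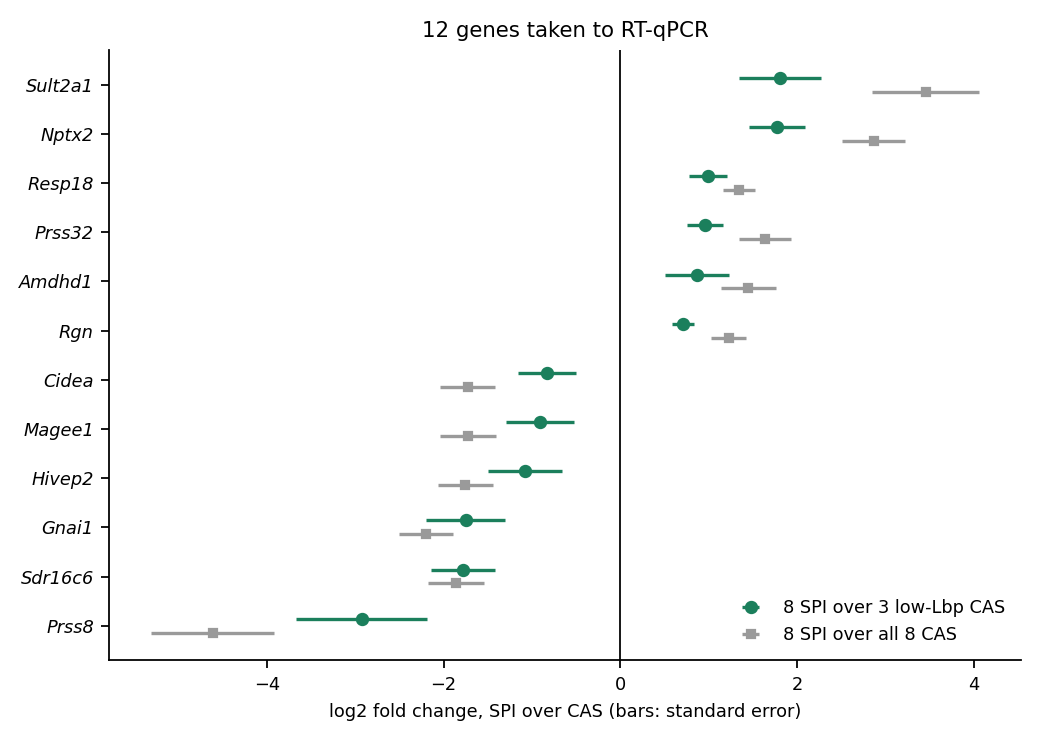
Log2 fold changes with standard errors of the 12 transcripts taken to RT-qPCR, SPI over the 3 low-Lbp CAS livers (green circles) and SPI over all 8 CAS livers (grey squares), which share livers. The green points run from -2.93 (Prss8) to 1.81 (Sult2a1) and the grey ones from -4.61 (Prss8) to 3.46 (Sult2a1).

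In the lists of metabolic genes, the members that stood out were few. For each list the members higher or lower at the looser thresholds were counted, beside the 2.5% higher and 1.97% lower among all genes and a median log2 fold change of -0.01 over all genes. Outside Cyp1a2, no member of any list passed the adjustment.

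Hepatocytes clear cholesterol by turning it into bile acids, through Cyp7a1, the rate-limiting enzyme of the main pathway, or through an alternative pathway in which Cyp7b1 acts on oxysterols. Of 15 enzymes of bile acid synthesis, 3 were higher and 0 lower, with a median log2 fold change of 0.12 (0.17 over all CAS livers), and the higher ones were 2 or 3 whichever library was left out. Cyp7a1 held 1452, 789, 2227, 1222, 1200.4, 1755, 673 and 771 normalised reads in SPI 1 to SPI 8, against 505, 458 and 584 in CAS 4, CAS 6 and CAS 7. All 8 SPI livers were above the 3 CAS livers, and SPI 3 and SPI 6 were the highest.

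The log2 fold change of Cyp7a1 was 1.18 (SE 0.34, adjusted p = 0.494 from limma), and 1.21 against all 8 CAS livers, of which the left-out 5 held 266 to 793. Cyp7b1 held 155, 264 and 343 in the SPI livers, against 100.3, 156 and 120.0 (1.07, SE 0.23, adjusted p = 0.118), and 1.04 against all 8. Amacr, a racemase in the shortening of the bile acid side chain, held 5549, 7803 and 9215 in the SPI livers, against 5313, 5147 and 5645 (0.39, SE 0.12), and 0.69 against all 8.

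Of 9 bile and sterol transporters 2 were higher. Slco1a1, an organic anion carrier of the sinusoidal membrane, held 3054, 4263 and 5354, against 2757, 3134 and 3039, and Abcg5, a sterol exporter, held 16.6, 45.7 and 76.1, against 29.8, 17.3 and 18.3. This count was 0 without SPI 8 and 1 without CAS 4, CAS 6, SPI 2, SPI 4, SPI 5 or SPI 6. Among 19 genes of cholesterol synthesis 1 was higher, Msmo1, a sterol oxidase, at 746, 1224 and 2386 in the SPI livers and 842, 684 and 787 in the CAS livers. That count was 3 without CAS 4, 2 without SPI 4, SPI 5 or SPI 7, and 0 without CAS 6 or CAS 7.

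Of 15 lipid droplet proteins and lipases 11 had a log2 fold change below 0 (median -0.18, but 0.03 without CAS 6 and -0.35 without CAS 7). Of the 15, 0 were higher and 2 lower at the looser thresholds, namely Cidea and Plin3, a droplet coat protein at 1081, 1333 and 1594 normalised reads in the SPI livers and 2289, 1619 and 1753 in the CAS livers (-0.51, SE 0.13). The count was 1 without any of the 3 CAS livers. Of 12 genes of fatty acid synthesis 11 had a log2 fold change below 0, with a median of -0.19 (-0.36 over all CAS livers), but 1 was lower, Fads2, the delta-6 desaturase, at 2100.4, 3079 and 4151 in the SPI livers and 4853, 3310.5 and 3442 in the CAS livers (-0.45, and -0.27 without CAS 4).

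Without CAS 7 or SPI 1 the lower genes of fatty acid synthesis were 2, and without CAS 4 or any 1 of SPI 3 to SPI 8 they were 0. Slc25a1, the citrate carrier that supplies this pathway, held 4486, 4700.4 and 5058 in the SPI livers, against 5898, 5585 and 5613, with all 8 SPI livers below (-0.36, SE 0.08, adjusted p = 0.162), a fold under 1.3. Of 28 genes of fatty acid oxidation 1 was higher, the fatty acid transporter Cd36 (0.44, SE 0.18), and the count was 0 without CAS 4 or CAS 7. Among 10 genes of triglyceride assembly and 14 apolipoproteins, 0 were higher and 0 lower.

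Of 27 cytochromes P450 of families 1 to 3, which oxidise steroids, drugs and food compounds, 2 were higher and 4 lower. Cyp3a9 held 373, 498 and 776 normalised reads in the SPI livers, against 125, 297 and 321 in CAS 4, CAS 6 and CAS 7, and 49.9 to 147 in the left-out CAS livers. CAS 4 was thus the lowest of the 3 and lay within the range of the CAS livers left out. The log2 fold change of Cyp3a9 was 1.15 (SE 0.26, adjusted p = 0.203 from limma), 0.72 without CAS 4, and 2.23 against all 8 CAS livers.

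The 4 lower members were Cyp2c12, Cyp2c22 (-0.46, and -0.29 without CAS 6), Cyp2c24 and Cyp3a62. Cyp2c12, which female rats express far more than males, held 407, 630.2 and 1324 in the SPI livers, against 2109, 1511 and 1503 (-1.34, SE 0.36). Cyp3a62 held 213, 287 and 388, against 428, 606 and 399.7 (-0.70, SE 0.18, and -1.39 against all 8 CAS livers). For both genes all 8 SPI livers lay below the CAS livers. Without SPI 4 the higher P450 genes were 4. With edgeR or DESeq2 the balance turned, to 4 higher and 2 lower. P450 genes of a subfamily are alike in sequence and may share reads.

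Of 46 enzymes that conjugate or cleave such compounds, 7 were higher and 2 lower. The higher ones were RGD1307603, which the reference table lists as Gstp3, Sult2a1, Ugt2a3, Ugt2b1, Ces1c, Ces2e and Ces2i, and the lower ones Gstm3.1 and Gstt3 (1 without CAS 6). RGD1307603 held 32.7, 74.9 and 179 in the SPI livers, against 10.9, 31.8 and 14.2 (2.18, SE 0.51, adjusted p = 0.205), with all 8 SPI livers above. Gstt3 held 1258, 1594 and 2192, against 2227, 2989.6 and 1921 (-0.54, SE 0.16, and -0.35 without CAS 6). These too are families of similar genes.

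Among 24 antioxidant and NRF2 target genes, 2 were higher, heme oxygenase Hmox1 (log2 fold change 0.48, SE 0.17, and 0.28 without CAS 7) and the quinone reductase Nqo1 (0.62, SE 0.29). The count was 0 without CAS 7 and 1 without CAS 4 or any 1 of SPI 1 to SPI 6, and the list's median was -0.08.

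Of 17 enzymes that break down histidine, tyrosine and tryptophan 2 were higher, both of the histidine pathway, and 0 lower. Hal, histidine ammonia-lyase, which takes the first step, held 3871, 4531 and 6219 normalised reads in the SPI livers, against 2845, 2613 and 3899 in the 3 CAS livers, and 1008 to 1745 in those left out. Its log2 fold change was 0.51 (SE 0.12, adjusted p = 0.203) against the low-Lbp CAS livers and 1.29 against all 8. The other was Amdhd1, and the count was 1 without CAS 6 or CAS 7.

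Of 29 genes of the methionine and urea cycles 1 was lower, arginase (Arg1), which releases urea from arginine. Its values overlapped, at 28418, 38786 and 43001 in the SPI livers and 45270.4, 38742 and 40433 in the CAS livers. The log2 fold change of -0.40 (SE 0.09) rested on quantile normalisation, and on the values as deposited it was -0.15, a fold under 1.3, which leaves 0 genes of that list. The count was 2 without CAS 6, SPI 3, SPI 6 or SPI 7. The betaine-homocysteine methyltransferases Bhmt and Bhmt2 moved in the same way with the scaling, at -0.37 and -0.29 against -0.18 and -0.15 on the values as deposited.

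Male and female rats differ in many liver transcripts because growth hormone is released in pulses in males and more evenly in females. Of 28 transcripts set by this pattern 3 were higher (Cyp3a9, Sult2a1 and Obp3) and 1 lower (Cyp2c12). Obp3, an alpha-2u globulin relative, held 201.3, 253 and 333 in the SPI livers, against 149.99, 167 and 209 (0.53, SE 0.19), whereas the left-out CAS livers held 7.44 to 75.6 and the log2 fold change over all CAS livers was 2.33. The higher genes were 2 without CAS 4, 5 without SPI 4 and 6 without SPI 5, and the lower ones 2 without CAS 6 or SPI 7. A shift toward the pattern of either sex was not tested.

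Few transcripts of immune signalling reached these thresholds. Of 10 TNF and NF-kB targets 0 were higher and 0 lower. Of 16 chemokines and cytokines 2 were higher, Il33 and Ccl5, a chemokine for T cells at 44.5, 62.2 and 82.4 in the SPI livers and 28.8, 59.1 and 26.4 in the CAS livers (1 without CAS 4 or CAS 7). Of 35 interferon-response genes 1 was higher (Oas1b) and 1 lower (Tapbp), with 0 to 2 in each direction when CAS 4, CAS 6, CAS 7, SPI 1, SPI 5 or SPI 7 was left out.

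MHC class II molecules, with which macrophages and B cells present peptides to CD4+ T cells, had lower values in SPI livers for 5 of 6 genes, of which 2 passed these thresholds. The median log2 fold change was -0.38, and -1.01 over all CAS livers. Cd74, the invariant chain, held 109, 132 and 178 normalised reads in the SPI livers, against 303, 171 and 229.8 in CAS 4, CAS 6 and CAS 7, and 224 to 646 in the left-out CAS livers (-0.78, SE 0.21, adjusted p = 0.270). RT1-Ba held 243, 308 and 395 in the SPI livers, against 485, 342 and 433 (-0.38, SE 0.16). CAS 6 lay within the SPI range for both. The count was 1 without CAS 4, SPI 4, SPI 6, SPI 7 or SPI 8.

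Among 32 genes of the extracellular matrix and its proteases 1 was higher (Mmp19, 0.51, and 0.30 without CAS 4) and 5 lower (Mmp2, Mmp15, Mmp27, Adamts5 and Itgb1), beside 1.97% of all genes. Mmp15, a membrane-bound metalloproteinase, held 371, 573 and 783 in the SPI livers, against 983, 956 and 844 (-0.78, SE 0.21, adjusted p = 0.283). Mmp2, a gelatinase, held 28.9, 68.6 and 109, against 177, 131 and 113 (-1.12, SE 0.38). Adamts5 held 1.07, 10.9 and 20.8, against 26.8, 47.3 and 97.6 (-2.34, SE 0.69). In all 3 genes every SPI liver was below the CAS livers. Without CAS 4 the lower genes were 2. The higher gene was lost without CAS 4, CAS 7, SPI 1, SPI 2, SPI 3, SPI 5, SPI 7 or SPI 8, and without CAS 6 there were 2.

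The remaining lists held few such genes. Of 18 integrated stress and ER folding genes 1 was higher, Sdf2l1, and the count was 2 without CAS 7. Sdf2l1 held 516, 717 and 827 in the SPI livers and 468, 439 and 542 in the CAS livers (0.53, SE 0.14). Of 21 genes of carbohydrate metabolism 1 was higher, the mitochondrial Pck2 (0.68, SE 0.18). Of 8 membrane serine proteases and their inhibitors 1 was higher (Prss32) and 1 lower (Prss8), and without CAS 7 the lower ones were 2. Of 9 clock genes, 17 hepatocyte transcription factors and 18 cell cycle genes, 0 were higher and 0 lower. Of 23 genes the study placed in its inflammation and cholesterol networks, chosen on these samples, Cyp7a1, Il33 and Slco1a1 were higher and the phosphodiesterase Pde4b lower (2 lower without SPI 6). Against all 8 CAS livers 4 of the 23 were higher and 12 lower at the looser thresholds. The study's networks include Lbp, which chose the CAS livers, and Lcn2. The small number of lower genes is therefore no independent result. Pde4b held 64.3, 137 and 182 in the SPI livers, against 202, 148 and 480.0 in CAS 4, CAS 6 and CAS 7, and its log2 fold change of -0.996 (SE 0.34) was -0.50 without CAS 7, where it no longer reached the looser thresholds.

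Same-numbered libraries of both diets carry the same L-code in the labels, which has the form of a sequencer lane and is not explained there. The libraries numbered 2 carry the same code as those numbered 7. With the replicate number as a block, 2 genes were higher and 3 lower at an adjusted p under 0.05, and Cyp1a2 was at 0.90 (adjusted p = 0.0359 from limma). Among the 11 livers only numbers 4, 6 and 7 occur in both diets, so the diet difference in that fit rests on 3 pairs. Under that replicate block several lists moved at the looser thresholds. Conjugating enzymes had 5 higher and 8 lower, P450 genes 1 higher and 2 lower, carbohydrate genes 5 higher, interferon-response genes 3 higher, and clock and cell cycle genes 2 higher each. Matrix genes had 2 lower, fatty acid synthesis 2, apolipoproteins 2, serine proteases and inhibitors 3, and MHC class II 1, while methionine and urea cycle genes had 0 lower, fatty acid oxidation 0 higher and endothelial markers 0 higher. Antioxidant genes had 1 higher. In each of bile acid synthesis, cholesterol synthesis, triglyceride assembly, fatty acid oxidation, chemokines, antioxidant genes, hepatocyte transcription factors and cell cycle genes 1 was lower, against 0 without the block.

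**Figure D5:**
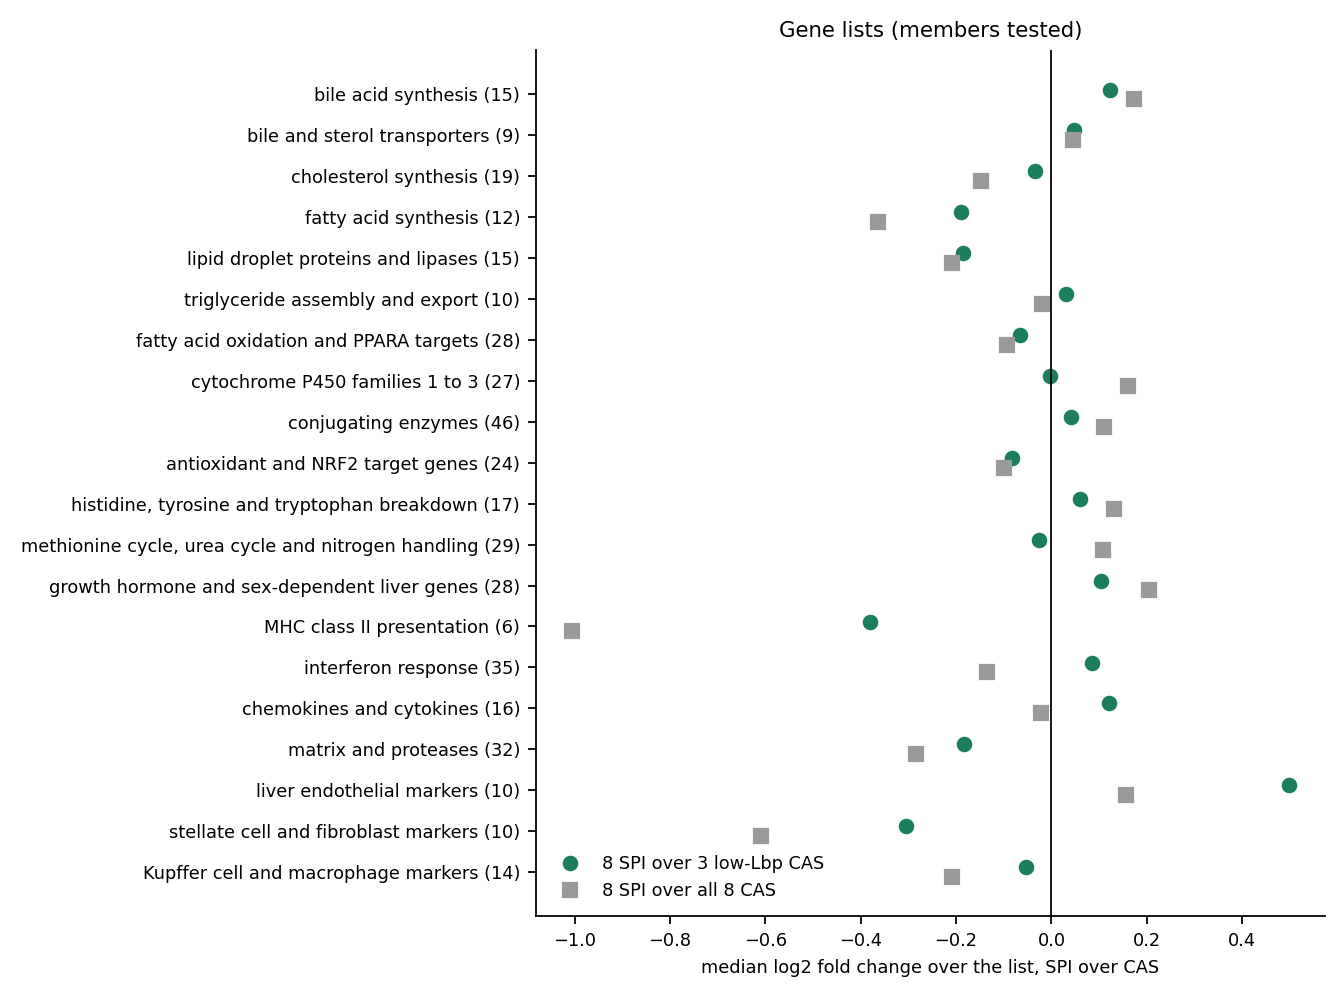
Median log2 fold change of 20 gene lists, SPI over the 3 low-Lbp CAS livers (green circles) and SPI over all 8 CAS livers (grey squares), with the number of members tested in brackets. The green medians run from -0.38 (MHC class II presentation) to 0.50 (liver endothelial markers), and the comparisons share livers.

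Markers of other liver cells were compared because whole liver holds them all. Liver endothelial markers had higher values in the SPI livers, with a log2 fold change above 0 for 10 of 10, a median of 0.50, and 3 higher at the looser thresholds (Pecam1, Lyve1 and Clec4g), and CAS 7 stood apart. Their summed level was 2503 to 5123 normalised reads in the SPI livers, against 2765, 3390 and 1130 in CAS 4, CAS 6 and CAS 7. CAS 7 was the lowest of all 16 livers in this sum. Without it 0 of 10 were higher and the median was 0.14, and without CAS 6 it was 6 of 10 and 0.87.

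Of 14 markers of Kupffer cells and macrophages, 0 were higher and 0 lower, with summed levels of 6319 to 10424 in the SPI livers and 7162 to 10229 in the low-Lbp CAS livers. Cd14, counted among them, is also on the acute phase list. Of 10 stellate cell and fibroblast markers 0 passed in either direction, 9 had a log2 fold change below 0 (median -0.30), and the sums were 3504 to 6149 and 4040 to 5767. The 5 lymphocyte and NK markers summed to 133 to 237 in the SPI livers and 135 to 169 in the CAS livers, and 0 passed. Of 3 neutrophil markers measured 1 passed the filter on low values, and of 4 cholangiocyte markers 1, namely Ncf1 at 19.1 to 55.1 in the SPI livers and 12.2 to 40.7 in the CAS livers, and Krt19 at 6.92 to 151 and 32.8 to 38.6. The defining cholangiocyte markers Sox9 and Cldn4 had a median of 0 in the SPI livers, with highest values of 6.39 and 7.43 in the SPI livers and 3.05 and 1.82 in the low-Lbp CAS livers. The part that such cells play in the differences above was not tested.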

How the data were processed

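Total RNA of 16 livers, 1 library per rat, was sequenced by the authors. The deposited signal values are reads per gene divided by 1 size factor per library. The submitters' processing notes name Rnor_6.0, DESeq2 and FastQC without versions, whereas the study's methods name CLC Genomics Workbench and an older rat assembly, so the aligner and counter behind these values are not settled. 100% of the values were whole multiples of 1 step per library (within 0.05), which returned whole reads. The columns of fold change, standard error, statistic, p and mean that the authors computed were not used.

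Values of the 8 SPI libraries and of the 3 CAS libraries with Lbp under 4000 were transformed as log2(value + 1), quantile-normalised and tested with limma 3.58.1 (trend and robust empirical Bayes, R 4.3.3) with Benjamini-Hochberg adjustment over 8067 genes. Log2 fold changes on this scale understate the change of genes with low values. edgeR 4.0.16 on the whole reads called 2 genes higher and 1 lower, and DESeq2 1.42.0 called 23 and 14. Other scalings, pseudocounts of 0.5 and 8, other filters, weights, the replicate number as a block, and the omission of single libraries were alternatives. The limma fit was checked on simulated data of 8 against 3 libraries. It called the right way 12 of 67 genes changed 1.5-fold, 34 of 67 changed 2-fold and 58 of 66 changed 4-fold. Of its 113 calls 9 were of unchanged genes. The real fit made 1 call, so the adjustment was less strict in the simulation. The shares found there do not carry over to the real fit. No pair of libraries of a group agreed within sampling noise (lowest chi-square per gene 24.0 among SPI and 31.3 among CAS).

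Groups and numbers follow the sample titles, and p-values measure the spread between single libraries of separate rats. The named genes were Lbp, Lcn2, the RT-qPCR genes, the 12 leading genes in each direction, list members at the looser thresholds and marker ranges. Members, lists and thresholds were chosen with earlier results of these data known. The RT-qPCR and network lists were chosen by the study on these samples. Promoters were matched by symbol.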

Additional observations from a re-analysis of the deposited data

Results flagged for a closer look

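In the 8 SPI livers, 33 named genes were examined for a single liver whose distance to its nearest neighbour took up a share of the group's range past Dixon's critical value, on the log2 scale after quantile normalisation, which chance gives in about 1 in 20 groups, and 4 genes had one. For Lbp, SPI 3 was at 3387 normalised reads against 1942 to 2387 in the other SPI livers (0.585 of the range on that scale and 0.692 on the values as deposited). For Gnai1, SPI 3 was at 5.01 against 14.9 to 33.0 (0.580, and 0.352 as deposited), and for Prss8 SPI 3 was at 0 against 8.54 to 29.7 (0.592, and 0.288 as deposited). For Arg1, SPI 1 was at 28418 against 33700.0 to 43001 (0.631, and 0.362 as deposited). On the values as deposited only that of Lbp was past the critical value among these 4. Without SPI 3, 1 gene was higher and 0 lower at an adjusted p under 0.05 from limma, as with it.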

How the results depend on the processing

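The counts at an adjusted p under 0.05 moved with the settings. Genes higher and lower in SPI livers numbered 2 and 1 for the values as deposited, for upper-quartile scaling and for edgeR, 2 and 0 with a pseudocount of 0.5, 2 and 4 with a pseudocount of 8, 23 and 14 for DESeq2, 6 and 2 with array weights, and 155 and 228 with all 8 CAS livers. They were 0 and 0 with no filter, with a filter of 50 in at least 5 libraries, without SPI 2 and SPI 8 together, and with 3 groups of 16 libraries. With Lbp as a covariate over 16 libraries no gene outside the acute phase lists was called. Mt2A, an acute phase transcript that reached the filter only through SPI livers, is counted for DESeq2, with a pseudocount of 0.5, with array weights and without SPI 1 or SPI 7. Leaving out single libraries gave 0 to 7 higher and 0 to 3 lower, and at the looser thresholds 183 to 239 higher and 110 to 178 lower. At those thresholds all 8 CAS livers gave 475 and 539. The adjusted p of Cyp1a2 was 0.0511 with no filter, 0.0674 with the filter of 50, 0.100 without SPI 2 and SPI 8, 0.278 with the Lbp covariate and 0.264 with 3 groups, and its log2 fold change stayed between 0.81 and 1.15. The 85 named genes followed over the alternatives were those with an unadjusted p under 0.05 from limma in the main fit. A turn of direction was therefore unlikely from the start, and the alternatives included the fit with all 8 CAS livers, another contrast. Of their 2286 values, 0 turned their direction and 124 passed the adjustment where the main value did not. Another 11, all of Cyp1a2, no longer passed. Where values moved and no number above shows why, the cause was not tested.

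On the values as deposited, list counts at the looser thresholds were 4 higher for bile acid synthesis, 1 for bile and sterol transporters, 3 for histidine, tyrosine and tryptophan breakdown and 5 for growth hormone and sex-dependent genes, and 0 lower for fatty acid synthesis and 0 higher for matrix genes. No scaling moved the median of all genes by over 0.1 on the log2 scale.

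Same-numbered libraries share an L-code. Deviations of same-numbered livers from their diet means correlated at -0.0248, -0.0097 and -0.0144 for numbers 4, 6 and 7. None of these CAS livers correlated best with the SPI liver of its own number. These are only 3 pairs, SPI 2 carries the L-code of number 7, and an effect of the code was not tested. With the replicate block 2 genes were higher (Cyp1a2 and Nptx2) and 3 lower, with 280 lower at the looser thresholds. Limiting SPI livers to Lbp under 4000 was not run, since all 8 were under it.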
